A study of Mus musculus with 9 samples.

Results

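Macrophages sorted from the epididymis, the coiled duct in which sperm mature and are stored, were compared gene by gene with microglia, the resident macrophages of the brain. A gene was included where its deposited value reached 10 in at least 3 of the 6 libraries of these organs, which held for 10441 of the 15434 genes in the table. At that limit, 1175 of the included genes reached 10 in exactly 3 of the 6 libraries, and 1301 genes that were left out reached it in exactly 2. The libraries come from a bulk RNA sequencing study of resident macrophages of testis, epididymis and brain, with 3 libraries per organ. The testis libraries are used here to share the estimate of the spread and, for single genes, as values beside the others.

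Both groups came from untreated C57BL/6J mice, and the cells were not cultured. The 3 epididymis libraries are all labelled with mouse number 2 and the 3 brain libraries with mouse number 3, so that organ and mouse cannot be told apart. A p-value here reflects the spread among libraries alone, which may be technical. An age in days or weeks is not in the labels. Tissue was minced, digested with collagenase and DNase and spun through Percoll. Live cells carrying CD45, CD11b and F4/80 and lacking Ly6c and CD11c were then sorted, by the same gate in both organs. The protocol mentions pooling of testis and epididymis suspensions without saying whether the 2 organs were mixed, and the organ labels were taken as given.

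Tissue macrophages share a core programme that depends on the receptor Csf1r and the transcription factor Spi1 (PU.1), and take on further features from the organ they live in. Microglia are seeded in the embryo, renew themselves within the brain and are known for Sall1, Tmem119 and P2ry12, a set of genes maintained in part by TGF-beta. Macrophages of the epididymis lie around and within the wall of the duct, where they take up dying cells and meet sperm antigens that arise after the immune system has matured.

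The 6 libraries held 2727092 to 3516387 reads assigned to genes, and 10551 to 12301 genes had a value above 0. A value is a normalised read, the read count divided by a factor per library, and 1 read was worth 0.889 to 1.11 normalised reads. On log2(value + 1), Pearson correlations ran from 0.755 to 0.820 between brain libraries, from 0.648 to 0.681 between epididymis libraries and from 0.569 to 0.667 across the organs, so the last 2 ranges overlapped. The first principal component, with 35.3% of the variance, separated the organs. The second, with 23.8%, placed epididymis library 2 at 109 and epididymis library 3 at -119, with the brain libraries between -23.5 and -6.18.

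The macrophage and sort markers were present in both organs. Csf1r, the receptor for colony-stimulating factor 1, had 12733, 14088 and 15375 normalised reads in the epididymis libraries and 19251, 21179.6 and 24507 in the brain libraries, with a log2 fold of epididymis over brain of -0.62 (SE 0.19, adjusted p = 0.0711), which did not pass. Ptprc, which encodes CD45, was higher in the epididymis (2727, 2575 and 3529 against 1657, 1849 and 1359.9), as was Adgre1, which encodes F4/80 (684, 346 and 331 against 88.3, 42.4 and 84.4), with log2 folds of 0.86 (SE 0.21, adjusted p = 0.0226) and 2.63 (SE 0.49, adjusted p = 0.00441). Itgam, which encodes CD11b, was lower, at 1134, 901 and 1247 against 2094, 2451 and 2047 and a log2 fold of -1.01 (SE 0.23, adjusted p = 0.016). For these 3 genes every epididymis library lay on one side of every brain library. The calls of Ptprc and Itgam depended on the libraries: they were lost for Ptprc and Itgam without the variance trend (adjusted p = 0.265 and 0.19), Ptprc and Itgam without brain library 1 (adjusted p = 0.0726 and 0.057), Itgam without brain library 2 (adjusted p = 0.0814), Itgam without epididymis library 2 (adjusted p = 0.0742), Ptprc without brain library 3 (adjusted p = 0.0798), Ptprc without epididymis library 1 (adjusted p = 0.0521) and Ptprc without epididymis library 3 (adjusted p = 0.0999). Ly6c2, excluded by the gate, was under the inclusion limit, at 0, 0.938 and 32.3 in the epididymis and 8.2, 46.8 and 6.22 in the brain. Itgax, which encodes the CD11c that the gate excludes, stood at 265, 209 and 294 in the epididymis and 0 in all 3 brain libraries, at least 88-fold higher (adjusted p = 0.00466). It reached the inclusion limit through the epididymis libraries alone, so the filter fixed its direction in advance. In testis libraries sorted through the same gate Itgax was at 0, 0 and 21.4.

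Genes of microglia identity were lower as a group in the epididymis, and genes of the C-type lectin, interferon response, ribosomal protein and MHC class II lists were higher where they differed. By limma with Benjamini-Hochberg adjustment over all 10441 genes, at an adjusted p below 0.05, 371 genes (3.55%) were higher in the epididymis and 238 (2.28%) were lower, 609 (5.83%) in either direction. The count of called members of each gene list below is to be read beside these shares. The other 9832 genes did not pass. At an unadjusted p below 0.05 there were 1824 genes. The called genes moved far: 200 of the higher genes and 130 of the lower ones differed by a log2 fold of at least 2, and the smallest called log2 fold was 0.664. Medians were 2.14 for the higher genes and -2.24 for the lower ones, beside -0.14 over all genes tested. Of the higher genes 36 had no read in the brain libraries, and of the lower genes 56 had no read in the epididymis libraries. Because a gene could enter through 3 libraries of a single organ, 135 of the called genes had exactly 3 libraries at the limit. Where these were the libraries of a single organ, the filter fixed the direction in advance. Named genes of this kind include Itgax, Axl, Cd36, Pf4, Cd69, Slamf7, Apoc1, Spic, Bmp2, Ifi211 and Mki67 (epididymis). Adamts1, Csf1, Adgrg1, Upk1b, Crybb1, S100a8 and S100a9 are examples for the brain. Such genes are also counted among the called members of the lists. All called genes but 1 had the 3 libraries of an organ above the 3 of the other, a pattern that 23.6% of all tested genes showed (11.5% with the epididymis above and 12.1% with the brain above).

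The counts depended on single libraries and on how the variance was modelled. Without epididymis library 1 the higher count was 243, and without brain library 1, 2 or 3 the lower count was 103, 113 or 149. When the variance was not allowed to follow the level of a gene (called the fit without the variance trend), 189 genes were higher and 145 lower. No called gene described here changed direction under any of the 16 alternatives in which it was tested (a filter at a value of 50 removed a few of low level). Where an alternative ended the call of a gene described here, its paragraph says so. Exons of some genes overlap a gene on the opposite strand, from which their reads cannot be told apart, among them Cx3cr1, P2ry12, Slco2b1, Ciita, Jun, Jund, Cxcl10, Cxcl16, Irf7, Slamf7, Cd72, Gpr65, Cp and Tnp1.

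**Figure D1:**
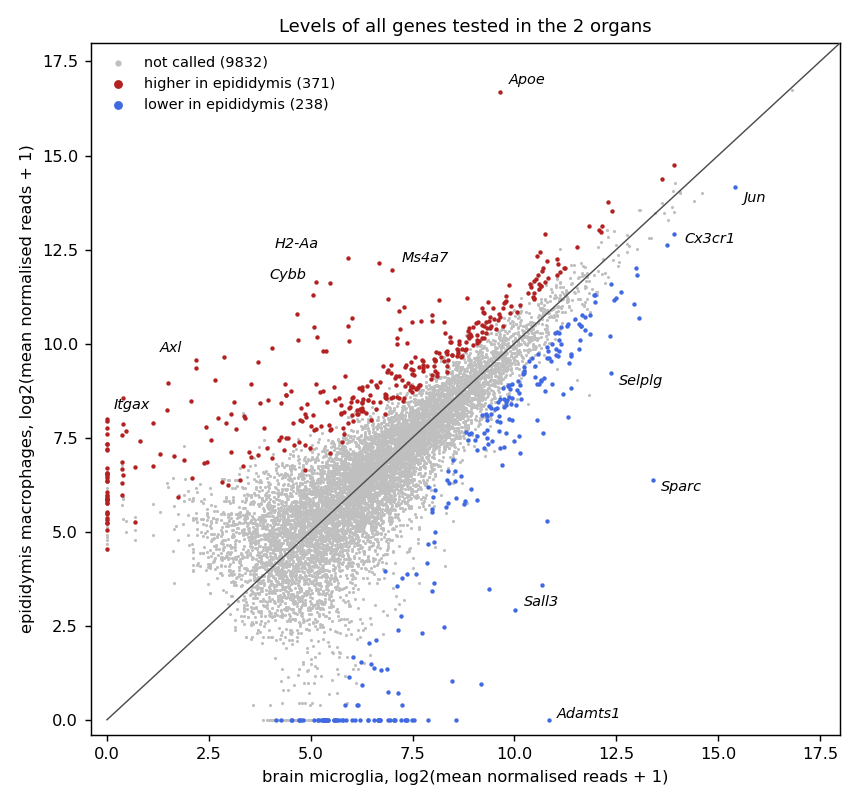
Mean level of each of the 10441 genes in the 3 brain libraries (horizontal axis) and the 3 epididymis libraries (vertical axis), both as log2(mean normalised reads + 1), with genes called higher in red, genes called lower in blue and the rest in grey. Points on the left edge and the bottom edge had no read in an organ, and Apoe and Sparc lie far from the diagonal at high levels.

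Genes known for marking microglia were lower in the epididymis as a group, but by very different amounts. Of 23 tested microglia identity genes, 14 were lower (2.28% of all genes were), none was higher and 9 did not pass. Adgrg1, Upk1b and Crybb1, among the 14, reached the inclusion limit through the brain libraries alone. For them the filter fixed the direction and the separation of the libraries in advance. The median log2 fold of the list was -1.78, and 21 of the 23 had all 3 brain libraries above all 3 epididymis libraries, which 12.1% of all genes showed. Summed, the list took 67.1 to 72.8 of every 10000 reads in the epididymis libraries and 204 to 221 in the brain libraries. In these bulk samples, fewer cells of a type and less RNA per cell cannot be told apart.

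A first set of these genes was at or close to no reads in the epididymis. Sall1, a zinc finger transcription factor that maintains microglial identity, was at 0, 0 and 30.2 in the epididymis and 805, 518 and 656 in the brain, a log2 fold of -7.69 (SE 1.34, adjusted p = 0.00279). Its relative Sall3 stood at 0, 19.7 and 0 against 1149, 1043 and 928, a log2 fold of -8.56 (SE 1.47, adjusted p = 0.00256). The only reads of each gene in the epididymis came from a single library, number 3 for Sall1 and number 2 for Sall3. Slc2a5, a fructose transporter, was at 1.82, 31 and 0 against 1672, 1289 and 1964, with a log2 fold of -8.50 (SE 1.37, adjusted p = 0.00159). Nav3, which encodes a microtubule-binding protein first described in neurons, was at 46.4, 0.938 and 65.8 against 1889.9, 1867 and 1607, with a log2 fold of -6.61 (SE 1.29, adjusted p = 0.00602). Adgrg1, an adhesion receptor, and Upk1b, a tetraspanin, had no read in the epididymis, against 245, 135 and 320.0 and 132, 130.4 and 135 in the brain, at least 79.8-fold and 45.3-fold lower (adjusted p = 0.0102 and 0.00326). Crybb1, a crystallin, had 2 reads in the epididymis libraries together, and its ratio of brain to epididymis was 223, with a 95% counting interval from 58.2 to 1754 (adjusted p = 0.00669). Sparc, a secreted matrix protein, was still detected in every epididymis library, at 74.5, 75 and 96, but stood at 10226, 11068 and 11251 in the brain, a log2 fold of -7.04 (SE 0.29, adjusted p = 3.96e-10). In this set the calls were lost for Nav3 without brain library 1 (adjusted p = 0.0559), Nav3 without brain library 2 (adjusted p = 0.0526) and Sall3 by DESeq2 on recovered reads (adjusted p = 0.0539).

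A second set was expressed in the epididymis at a fraction of the brain level. Cx3cr1, the fractalkine receptor, reached 7739, 7424 and 7989.9 in the epididymis and 15092, 14205 and 17072 in the brain, a log2 fold of -0.998 (SE 0.17, adjusted p = 0.00279). Tmem119, a transmembrane protein widely used as a microglia marker, was at 1378, 1324 and 1567 against 3196, 2876 and 3479, a log2 fold of -1.16 (SE 0.26, adjusted p = 0.0141). Fcrls, an Fc receptor-like scavenger receptor, was at 1305, 916 and 1436 against 3456, 3728 and 3933, a log2 fold of -1.63 (SE 0.33, adjusted p = 0.00734). These 3 genes thus kept 49.9%, 44.7% and 32.9% of the mean brain level, whereas Sparc kept 0.754%. Slco2b1, an organic anion transporter, fell less, from 5552, 5300.5 and 5055 to 2944, 3167 and 3132, a log2 fold of -0.78 (SE 0.17, adjusted p = 0.0119). P2ry12, the ADP receptor that steers microglial processes, fell more, from 2717, 2015 and 2889 to 340.0, 300.2 and 153, a log2 fold of -3.32 (SE 0.63, adjusted p = 0.00466). Siglech, a sialic acid-binding lectin, went from 2539, 3002 and 2564 to 208, 356 and 782, a log2 fold of -2.80 (SE 0.38, adjusted p = 0.000404). The epididymis values of Siglech spread widely, and all lay below those of the brain. Calls were lost for Tmem119, Fcrls, Cx3cr1, P2ry12 and Slco2b1 without the variance trend (adjusted p = 0.182, 0.122, 0.141, 0.0919 and 0.239), Tmem119 and Slco2b1 without brain library 1 (adjusted p = 0.0644 and 0.0606), Tmem119 without brain library 3 (adjusted p = 0.057), Tmem119 without epididymis library 1 (adjusted p = 0.0553) and Tmem119 without epididymis library 2 (adjusted p = 0.0592).

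Of the 23 microglia identity genes, 12 were higher and 1 was lower in the epididymis than in the testis macrophages (2.15% and 2.08% of all genes). Of the first set, Sall1, Sall3, Slc2a5, Nav3, Adgrg1, Upk1b and Crybb1 did not pass against the testis. Tmem119 was at 349.9, 180.2 and 172 in the testis, and the log2 fold of epididymis over testis was 2.68 (SE 0.26, adjusted p = 4.86e-05). For Cx3cr1 the testis values were 2001, 2297 and 2516, with a log2 fold of 1.77 (SE 0.17, adjusted p = 4.86e-05), and for Fcrls 155, 55.7 and 136, with 3.49 (SE 0.33, adjusted p = 4.44e-05). Slco2b1 at 1089, 1295 and 1144 and Siglech at 131, 192 and 117 in the testis gave log2 folds of 1.39 (SE 0.17, adjusted p = 0.000298) and 1.42 (SE 0.38, adjusted p = 0.0486). For P2ry12, at 122, 12.9 and 112, the fold of 2.12 (SE 0.63, adjusted p = 0.078) did not pass. Sparc was at 354, 312 and 712 in the testis, above the epididymis, with a log2 fold of -2.38 (SE 0.29, adjusted p = 0.000258).

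The 9 microglia identity genes that did not pass include genes with clear levels in both organs. Trem2, a lipid-sensing receptor, was at 2372, 1698 and 2253 in the epididymis and 3232, 3096 and 3332 in the brain, a log2 fold of -0.63 (SE 0.20, adjusted p = 0.0914). Bhlhe41, a repressor of transcription, was at 701, 788 and 653 against 990.0, 1061 and 662, and the 2 ranges overlapped, with a log2 fold of -0.32 (SE 0.33, adjusted p = 0.714). Olfml3, a secreted protein, was at 503, 502 and 915 against 1942, 2037 and 2374. Its ranges did not overlap, yet the log2 fold of -1.78 had an adjusted p of 0.223 in the fit that shares its spread with the testis and 0.00276 in the fit of the 6 libraries alone. On the log2(value + 1) scale of the fit, its 3 testis values, 49.7, 2.42 and 55.6, spread far more than those of either organ compared here. Lag3, an inhibitory receptor, was the only member of the list with a fold above 0, at 142, 36.6 and 121 against 58.3, 35.7 and 53.3 (log2 fold 0.82 (SE 1.36, adjusted p = 0.827)).

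**Figure D2:**
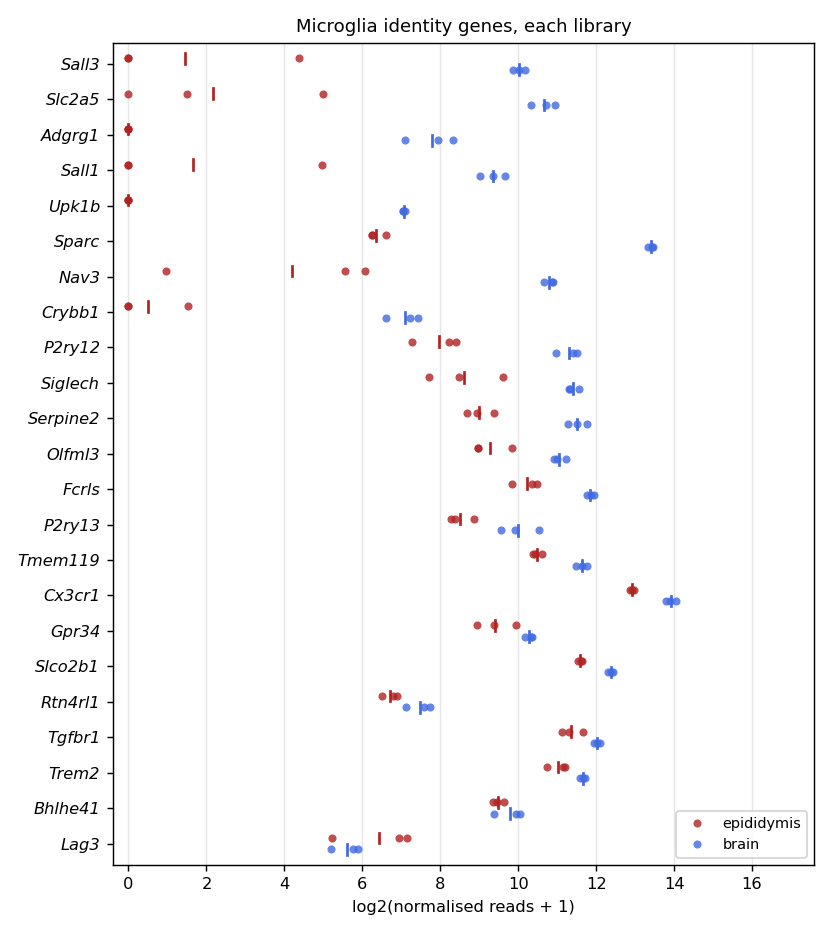
Each of the 3 epididymis libraries (red) and 3 brain libraries (blue) for the 23 microglia identity genes, on log2(normalised reads + 1), with a vertical stroke at the mean of the logs and genes ordered by the fitted fold. The epididymis points lie left of the brain points for 21 genes, by a wide gap for Sparc and Sall3 and a narrow one for Cx3cr1 and Trem2.

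MHC class II molecules present peptides of engulfed proteins to CD4+ T cells, and their chains were among the genes with the clearest difference. Of 20 tested genes of the class II list, 6 were higher in the epididymis (3.55% of all genes were), none was lower and 14 did not pass, with a median log2 fold of 0.30. The 6 were the classical chains H2-Aa, H2-Ab1 and H2-Eb1, the invariant chain Cd74, the peptide-loading chain H2-DMa and Ciita, the activator that switches class II genes on. H2-Aa, on the minus strand at chr17:34282744-34287823 of GRCm38, was at 5805, 5110.1 and 4031 in the epididymis and 72, 45.7 and 60.4 in the brain, a log2 fold of 6.37 (SE 0.22, adjusted p = 1.38e-10). H2-Ab1 was at 4088, 2756 and 2635 against 45.5, 25.6 and 31.1 and H2-Eb1 at 1385, 955 and 964 against 37.3, 1.11 and 35.6, with log2 folds of 6.50 and 6.24 (SE 0.26 and 0.77, adjusted p = 3.96e-10 and 0.000147). The lowest epididymis value of these chains, 955 for H2-Eb1, lay far above their highest brain value, 72 for H2-Aa.

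Cd74 went with the chains, at 1852, 1172 and 2283 against 40.1, 2.23 and 31.1 (log2 fold 6.72 (SE 0.67, adjusted p = 1.53e-05)). Ciita stood at 239, 452 and 360.1 against 4.55, 0 and 18.7 (log2 fold 6.15 (SE 0.86, adjusted p = 0.000513)). H2-DMa differed less, at 420.0, 275 and 162 against 19.1, 24.5 and 113 (log2 fold 2.78 (SE 0.62, adjusted p = 0.0139)), and its call was lost for H2-DMa without the variance trend (adjusted p = 0.0912), H2-DMa with only the 6 libraries in the fit (adjusted p = 0.0507), H2-DMa without brain library 1 (adjusted p = 0.0677), H2-DMa without brain library 2 (adjusted p = 0.0629), H2-DMa without epididymis library 1 (adjusted p = 0.0797) and H2-DMa without epididymis library 2 (adjusted p = 0.052). Other members did not pass: Ctss, the protease that trims the invariant chain, was at 15546, 10268 and 10493 against 8390.3, 7690.4 and 10069 (log2 fold 0.46 (SE 0.27, adjusted p = 0.439)), and the modulators H2-Oa and H2-Ob were at 0, 61.9 and 0 and 76.4, 86.3 and 0 in the epididymis. H2-Aa and H2-Ab1 were lower than in the testis macrophages, which held 12632, 15012 and 16153 and 6890.0, 7061 and 9686, with log2 folds of epididymis over testis of -1.56 (SE 0.22, adjusted p = 0.000814) and -1.33 (SE 0.26, adjusted p = 0.00808). Class II genes are close relatives of one another, and how reads shared between them were assigned is not given in the sources used here.

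Promoters of class II genes carry a block of conserved elements near the start site, one of which is the Y box, an inverted CCAAT sequence bound by the factor NF-Y. Written CTGATTGG and sought on both strands in the 250 bases before each RefSeq start site, it was held by 3.83% of 32851 promoters. By gene, 4.43% of 27025 genes had a promoter that held it. Of the 20 class II genes tested, 14 had a promoter in the RefSeq table and 4 of these held the Y box: H2-Aa and H2-Eb1, which were higher in the epididymis, and H2-Eb2 and H2-Oa, which did not pass. H2-Eb2 was at 40, 16.9 and 0 in the epididymis and 9.11, 12.3 and 6.22 in the brain. The upstream bases of both higher genes and of H2-Eb2 are shown for comparison, from RefSeq on GRCm38.p6, 5′ to 3′ on the gene's strand and ending at the base before the start site, with the Y box in capitals on whichever strand it was found. H2-Aa (chr17:34287824-34288073, minus strand) has it at position -51 from the start, H2-Eb1 (chr17:34305617-34305866, plus strand) at -62 and H2-Eb2 (chr17:34325425-34325674, plus strand) at -103. A match describes these letters and not a bound site.
H2-Aa: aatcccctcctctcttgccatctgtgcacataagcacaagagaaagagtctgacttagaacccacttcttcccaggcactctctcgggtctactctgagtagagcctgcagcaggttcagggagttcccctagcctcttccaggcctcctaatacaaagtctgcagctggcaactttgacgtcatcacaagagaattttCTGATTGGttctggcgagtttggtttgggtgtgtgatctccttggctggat
H2-Eb1: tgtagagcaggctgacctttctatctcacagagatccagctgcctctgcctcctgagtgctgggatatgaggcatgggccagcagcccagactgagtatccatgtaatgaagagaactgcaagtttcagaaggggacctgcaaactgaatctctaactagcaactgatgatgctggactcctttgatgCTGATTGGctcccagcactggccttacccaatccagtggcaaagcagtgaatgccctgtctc
H2-Eb2: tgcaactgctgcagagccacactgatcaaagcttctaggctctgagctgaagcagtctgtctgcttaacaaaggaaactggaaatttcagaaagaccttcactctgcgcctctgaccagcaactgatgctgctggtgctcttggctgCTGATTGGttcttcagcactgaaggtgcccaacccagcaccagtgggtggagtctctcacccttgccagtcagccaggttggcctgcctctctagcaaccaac

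Class I molecules, which show peptides from inside the cell to CD8+ T cells, were higher for the classical heavy chains. H2-D1 was at 8230.0, 6783 and 7966 in the epididymis and 1559, 1708 and 1866 in the brain, a log2 fold of 2.16 (SE 0.17, adjusted p = 1.51e-06), and H2-K1 was at 2109, 1989 and 1817 against 357, 853 and 559, a log2 fold of 1.83 (SE 0.27, adjusted p = 0.000658). Calr, a chaperone that folds class I chains in the endoplasmic reticulum, was lower, at 2517, 2891 and 2177 against 4068, 3672 and 4220.0, a log2 fold of -0.66 (SE 0.18, adjusted p = 0.0406). The other 14 of 17 tested class I genes did not pass, and the median of the list was 0.46. The H2-K1 call was lost without the variance trend (adjusted p = 0.0523), and the call of Calr in 8 of the 16 alternatives.

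Apoe, the apolipoprotein with which macrophages export cholesterol, took the most reads of all called genes. It was at 102571, 102287 and 112096 in the epididymis libraries and 882, 895 and 633 in the brain libraries, a log2 fold of 7.05 (SE 0.30, adjusted p = 6.02e-10), and it was the gene with the most reads of epididymis library 3. The gene lies at chr7:19696109-19699188 of GRCm38. Epididymis values exceeded those of the testis macrophages too (6696, 2878 and 8182), with a log2 fold of 4.29 (SE 0.30, adjusted p = 1.97e-06). Apoc1, its neighbour in the apolipoprotein cluster, was at 54.5, 23.4 and 52.8 against 0 in all 3 brain libraries, at least 15-fold higher (adjusted p = 0.0219). Abca1, the transporter that loads cholesterol onto apolipoproteins, was at 1675, 1741 and 2002 against 740.5, 551 and 546, a log2 fold of 1.57 (SE 0.31, adjusted p = 0.00655). These 3 were the called genes of 22 tested in cholesterol synthesis and efflux, where 19 did not pass and the median was 0.73. Lpl, the lipase that frees fatty acids from lipoproteins, was at 940.0, 784 and 894 against 180.3, 329 and 292 (log2 fold 1.75 (SE 0.27, adjusted p = 0.00131)). The alternatives ended calls for Abca1 and Lpl without the variance trend (adjusted p = 0.116 and 0.0505), Apoc1 with no filter on low values (adjusted p = 0.0502), Apoc1 without brain library 1 (adjusted p = 0.0691), Apoc1 without brain library 2 (adjusted p = 0.06), Apoc1 without brain library 3 (adjusted p = 0.0572), Apoc1 without epididymis library 1 (adjusted p = 0.0639) and Apoc1 without epididymis library 3 (adjusted p = 0.0576).

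Apoe, Lpl and Itgax also belong to a list of 14 tested genes that microglia turn on in disease models. Of these 6 were higher (3.55% of all genes were), 1 was lower (2.28% were) and 7 did not pass, with a median log2 fold of 1.28. Axl and Itgax reached the inclusion limit through the epididymis libraries alone, and Csf1 through the brain libraries alone. For these genes the filter fixed the direction in advance. Axl, a receptor tyrosine kinase for the bridging proteins of dying cells, was at 683, 812 and 774 in the epididymis and 0.911, 0 and 9.78 in the brain, a log2 fold of 8.11 (SE 0.76, adjusted p = 9.68e-06). Its relative Mertk went the other way, at 933, 1059 and 1513 against 5965, 5883 and 3844, a log2 fold of -2.16 (SE 0.29, adjusted p = 0.000361). Igf1, a growth factor, was at 348, 287 and 384 against 5.46, 20.1 and 29.3 (log2 fold 4.40 (SE 0.62, adjusted p = 0.000564)), and Clec7a, the beta-glucan receptor, at 269, 478 and 194 against 0, 63.5 and 14.2 (log2 fold 4.88 (SE 1.36, adjusted p = 0.0477), lost in 8 of 16 alternatives). Csf1, the ligand of Csf1r, was the lower gene of the list, with 0 in all 3 epididymis libraries and 116, 54.6 and 126 in the brain, at least 33.8-fold lower (adjusted p = 0.0157). That call was lost for Csf1 without brain library 1 (adjusted p = 0.0614) and Csf1 without brain library 3 (adjusted p = 0.0522). Other genes of the list did not pass: Ctsd was at 1265, 1146 and 958 against 1974, 1936 and 2169 (log2 fold -0.86 (SE 0.44, adjusted p = 0.349)) and Ccl6 at 1095, 1045 and 1157 against 829.7, 1033 and 1298 (log2 fold 0.08 (SE 0.25, adjusted p = 0.912)). Of the 18 genes listed, Cst7, Spp1, Gpnmb and Ch25h fell under the inclusion limit. Cst7 was at 0, 0 and 5.39 against 0, 14.5 and 24. Spp1 was at 12.7, 1.88 and 0 against 0, 8.92 and 0.889. Gpnmb was at 0, 0 and 8.62 against 0, 3.34 and 0, and Ch25h at 27.3, 37.5 and 0 against 0, 0 and 0.

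Receptors for the uptake of dying cells and modified lipoproteins were divided in direction. Of 19 tested efferocytosis and scavenger receptor genes, 4 were higher (Axl, Cd36, Msr1 and Abca1), 4 were lower (Mertk, Lrp1, Elmo1 and Itgb3) and 11 did not pass. Over all genes, 3.55% were higher and 2.28% were lower. Axl and Cd36 reached the inclusion limit through the epididymis libraries alone, so for them the filter fixed the direction in advance. Cd36, a fatty acid and lipoprotein receptor, was at 719, 779 and 457 against 0.911, 0 and 9.78, a log2 fold of 7.86 (SE 0.81, adjusted p = 2.36e-05). Msr1, scavenger receptor A, was at 135, 233 and 183 against 13.7, 0 and 40.9 (log2 fold 4.41 (SE 1.13, adjusted p = 0.0309)). Elmo1, which links engulfment receptors to the actin cytoskeleton, was at 573, 374 and 479.8 against 1193, 975 and 1193 (log2 fold -1.25 (SE 0.27, adjusted p = 0.0104)). Lrp1, an endocytic receptor that also takes up Apoe-bearing particles, was at 1242, 1238 and 1324 against 2147, 2059 and 2168 (log2 fold -0.74 (SE 0.21, adjusted p = 0.0462)). Axl and Cd36 were thus at or near 0 in the brain, while Mertk and Lrp1 were expressed in every library of both organs. Axl, Cd36 and Mertk kept their calls under all 16 alternatives, whereas Msr1 lost its call in 7, Lrp1 in 9, Itgb3 in 8 and Elmo1 in 2.

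Surface lectins and other markers of macrophages outside the brain tissue proper were higher in the epididymis where they differed. Of 12 tested C-type lectins, 6 were higher (3.55% of all genes were), none was lower and 6 did not pass, with a median log2 fold of 2.70. Mrc1, the mannose receptor CD206, was at 1645, 1726 and 1523 in the epididymis and 71, 80.3 and 40.9 in the brain, a log2 fold of 4.70 (SE 0.27, adjusted p = 4.07e-08). Clec12a, an inhibitory receptor for crystals from dead cells, was at 823, 857 and 701 against 10.9, 0 and 8 (log2 fold 7.38 (SE 0.74, adjusted p = 1.64e-05)). Clec4a2 was at 972, 1082 and 1106 against 348, 375 and 322 (log2 fold 1.60 (SE 0.21, adjusted p = 0.000301)). Cd69, a lectin that appears on activated leukocytes, was at 324, 316 and 61.5 against 0.911, 0 and 0, with 1 brain read in all, a ratio of 769.9 and a 95% counting interval from 135 to 29916 (adjusted p = 0.000587). These 4 kept their calls under all alternatives. Clec7a and Clec2d, the other 2 higher lectins, lost theirs in 8 and 7 of 16.

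Tissue macrophages marked by Lyve1 share a list of which 9 genes were tested, while Lyve1, Timd4 and Cd209g have no deposited value. Of the 9, 4 were higher (Mrc1, Pf4, Cd36 and Igf1), none was lower and 5 did not pass. Pf4 and Cd36 reached the inclusion limit through the epididymis libraries alone, so for them the filter fixed the direction in advance. All epididymis libraries lay above all brain libraries for 5 of the 9 and below for 2 (11.5% and 12.1% of all genes). Folr2, Ccl8, Cd209f, Cd209b, Fcna and Fxyd2 were among the members under the inclusion limit. Pf4, the chemokine CXCL4, was at 568, 408 and 519 against 5.46, 0 and 0, a log2 fold of 8.05 (SE 0.74, adjusted p = 8.16e-06). Ms4a7, a membrane protein of macrophages that line the borders of the brain, was at 4073, 3567 and 4329.7 against 134, 138 and 106 (log2 fold 4.98 (SE 0.35, adjusted p = 3.37e-07)), and also above the testis macrophages (446, 178 and 570.2, log2 fold 3.48 (SE 0.35, adjusted p = 4.86e-05)). Not all genes of this kind were present: Cd163, a haemoglobin scavenger, was below the inclusion limit at 12.7, 16.9 and 0 in the epididymis and 4.55, 0 and 0.889 in the brain, and Cbr2 was at 30, 0 and 0 in the epididymis. Stab1, an endocytic receptor, was at 1157, 1127 and 1413 against 761, 687 and 613 (log2 fold 0.84 (SE 0.26, adjusted p = 0.0802)), which did not pass. Slamf7 and Slamf9, the 2 called genes of 15 tested SLAM and CD300 receptors, were both higher. Slamf7 was at 465, 339 and 264 against 0, 3.34 and 6.22 (log2 fold 6.78 (SE 0.70, adjusted p = 2.23e-05)) and Slamf9 at 1813, 1755 and 1659 against 230.4, 193 and 335 (log2 fold 2.82 (SE 0.26, adjusted p = 9.43e-06)).

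**Figure D3:**
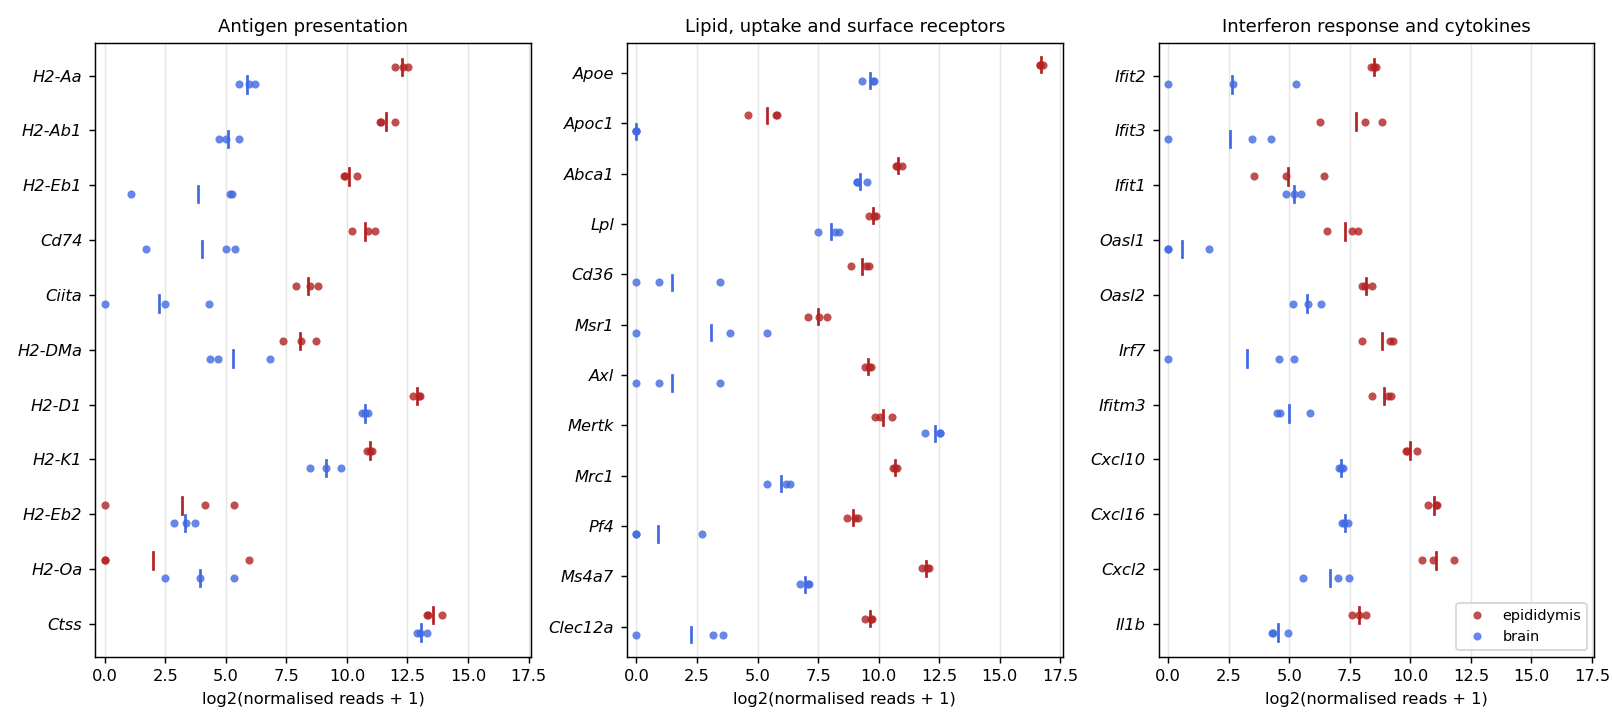
Each epididymis library (red) and brain library (blue) for genes of antigen presentation (left), lipid handling, uptake and surface receptors (centre) and the interferon response and cytokines (right), on log2(normalised reads + 1), with a vertical stroke at the mean of the logs. Apoe stands near 17 in the epididymis and below 10 in the brain, Mertk is reversed against Axl, and Ifit1, H2-Eb2, H2-Oa and Ctss overlap or nearly so.

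Type I interferon switches on antiviral genes through factors that include Stat2 and Irf9. Of 22 tested genes of this response, 9 were higher in the epididymis (3.55% of all genes were), none was lower and 13 did not pass. The median log2 fold was 2.67, and 15 of the 22 had all epididymis libraries above all brain libraries, which 11.5% of all genes showed. Cxcl10, a chemokine for T cells, was at 935, 906 and 1229 against 138, 132 and 146, a log2 fold of 2.87 (SE 0.31, adjusted p = 4.44e-05). Ifitm3, which blocks viral entry, was at 582, 543 and 339 against 23.7, 56.9 and 21.3 (log2 fold 3.91 (SE 0.49, adjusted p = 0.000188)). Irf7, the factor that amplifies the response, was at 565, 258 and 624 against 0, 35.7 and 23.1 (log2 fold 5.55 (SE 1.10, adjusted p = 0.00645)). Ifit2 was at 361, 382 and 333 against 0, 37.9 and 5.33 (log2 fold 5.84 (SE 1.05, adjusted p = 0.00328)) and Oasl2 at 282, 337 and 252 against 77.4, 34.6 and 53.3 (log2 fold 2.44 (SE 0.49, adjusted p = 0.00728)). For all 5 genes the lowest epididymis library lay above the highest brain library.

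Stat2, at 382, 185 and 339.6 against 214, 399 and 159, and Irf9, at 220.0, 413 and 569 against 207, 344 and 203, did not pass (log2 folds 0.27 and 0.61, adjusted p = 0.807 and 0.431). Ifit3 and Ifit1 are neighbouring genes of one family on chromosome 19. Ifit3 was at 455, 76.9 and 275 against 10, 0 and 17.8 (log2 fold 5.18 (SE 1.06, adjusted p = 0.00812)), and Ifit1 at 85.5, 28.1 and 10.8 against 35.5, 43.5 and 28.4 (log2 fold -0.23 (SE 1.16, adjusted p = 0.95)). Members of the Ifit and Oas families resemble each other, so that reads shared between copies make single genes uncertain. The calls of Ifit2, Oasl1, Oasl2, Ifitm3 and Cxcl10 held under all 16 alternatives, and calls were lost for Ifit3 and Irf7 without the variance trend (adjusted p = 0.0537 and 0.0805) and Ifit3 without epididymis library 1 (adjusted p = 0.0603). That of Oas1a was lost in 4 of 16.

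The core of the interferon-stimulated response element, GAAA, then any 2 bases, then GAAA again, on either strand, was held by 2.98% of the 32851 promoters. By gene, 3.46% of 27025 genes had a promoter that held the element. It was found for 7 of the 16 interferon genes with a promoter in the RefSeq table: Cxcl10, Oas1a and Ifit3, which were higher, and Ifit1, Oas3, Stat2 and Bst2, which did not pass. The upstream bases of Ifit3 (chr19:34583279-34583528, plus strand) and Ifit1 (chr19:34640639-34640888, plus strand) are shown because the neighbours differ in their calls, in the same layout, with every match in capitals. The 250 bases of each held the element at 2 positions, -156 and -122 for Ifit3 and -104 and -85 for Ifit1.
Ifit3: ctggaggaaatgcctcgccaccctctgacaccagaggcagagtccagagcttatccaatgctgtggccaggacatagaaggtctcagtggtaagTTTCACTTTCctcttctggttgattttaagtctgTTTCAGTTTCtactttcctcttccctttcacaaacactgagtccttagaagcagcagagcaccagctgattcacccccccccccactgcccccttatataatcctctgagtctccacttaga
Ifit1: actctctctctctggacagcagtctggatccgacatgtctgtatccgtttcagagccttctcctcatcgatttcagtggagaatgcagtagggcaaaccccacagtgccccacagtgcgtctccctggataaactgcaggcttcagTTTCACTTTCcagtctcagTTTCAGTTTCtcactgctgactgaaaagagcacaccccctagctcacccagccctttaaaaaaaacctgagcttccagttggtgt

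Other interferon-inducible genes, named after their values were seen, lie in the cluster of DNA-sensing Ifi200 proteins on chromosome 1. Ifi211 was at 172, 275 and 292 in the epididymis and 0 in all 3 brain libraries, at least 84.5-fold higher (adjusted p = 0.000272). Mndal was at 1188, 1123 and 1129 against 18.2, 36.8 and 48.9 (log2 fold 5.12 (SE 0.36, adjusted p = 2.96e-07)), and Ifi203 at 1025, 731 and 925 against 26.4, 74.7 and 21.3 (log2 fold 4.62 (SE 0.42, adjusted p = 6.8e-06)). In contrast Ifi204 was at 66.4, 328 and 106 against 70.1, 214 and 85.3 (log2 fold 0.28 (SE 0.68, adjusted p = 0.886)). The genes of this cluster are near copies of one another, so that the split of reads between them is uncertain.

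Cytokines and chemokines were mostly higher where they differed. Of 19 tested genes, 6 were higher (3.55% of all genes were), 1 was lower (2.28% were) and 12 did not pass, with a median log2 fold of 0.39. Cxcl16, a membrane-bound chemokine that also binds oxidised lipoproteins, was at 1697, 2105 and 2210.1 against 172, 144 and 153, a log2 fold of 3.67 (SE 0.22, adjusted p = 4.17e-08). Cxcl2, which draws neutrophils, was at 3581, 1408 and 1941 against 46.5, 129 and 176 (log2 fold 4.38 (SE 0.53, adjusted p = 0.000132)). Il1b, the interleukin-1 beta precursor, was at 232, 284 and 189.7 against 19.1, 30.1 and 18.7 (log2 fold 3.34 (SE 0.48, adjusted p = 0.000588)). The related Il1a was at 205, 164 and 113 against 93.8, 176 and 142 (log2 fold 0.23 (SE 0.71, adjusted p = 0.914)), and Tnf at 52.7, 116 and 141 against 12.8, 63.5 and 75.5 (log2 fold 1.24 (SE 0.76, adjusted p = 0.45)), neither of which passed. Ccl9 was lower, at 67.3, 50.7 and 175 against 445, 371 and 298 (log2 fold -2.11 (SE 0.53, adjusted p = 0.029), lost in 7 of 16 alternatives). Ccl3 and Ccl4, which rise with handling of microglia, did not pass: Ccl3 was at 481, 152 and 112 against 117, 229.6 and 252 (log2 fold 0.09 (SE 0.61, adjusted p = 0.964)) and Ccl4 at 526, 158 and 170.3 against 111, 197 and 288, with overlapping ranges for both.

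Immediate early genes, which cells turn on within minutes of a stimulus or of tissue dissociation, mostly did not pass, and more of those that did were lower than higher. Of 25 tested genes, 2 were higher (3.55% of all genes were), 5 were lower (2.28% were) and 18 did not pass. The median log2 fold was -0.60. Summed, the list took 144 to 156 of every 10000 reads in the epididymis libraries and 247 to 337 in the brain libraries. Egr1, a zinc finger factor, was at 1989, 1698 and 1252 against 6212, 9462 and 10027, a log2 fold of -2.37 (SE 0.25, adjusted p = 3.52e-05). Jun, a subunit of the AP-1 factor, was at 16974, 20025 and 18039 against 34342, 46806 and 50772 (log2 fold -1.24 (SE 0.21, adjusted p = 0.00237)), and Jund at 680.0, 1084 and 894 against 1931, 2605 and 1969 (log2 fold -1.30 (SE 0.23, adjusted p = 0.0027)). Its partner Fos did not pass, at 845, 741 and 1371 against 1281, 1796 and 1128 (log2 fold -0.53 (SE 0.26, adjusted p = 0.318)), with overlapping ranges. Klf2 and Klf4, factors that restrain inflammatory genes, were the other 2 lower genes, with log2 folds of -1.10 and -1.02 (adjusted p = 0.0113 and 0.0256). Ier3, a survival protein, was higher, at 1198, 1049.6 and 969 against 254, 322 and 620.4 (log2 fold 1.53 (SE 0.31, adjusted p = 0.00819)), and so was Fosl2 (log2 fold 1.19 (SE 0.29, adjusted p = 0.0238)). Egr1 alone of the 7 kept its call under all 16 alternatives, and Jun and Jund lost theirs only without the variance trend (adjusted p = 0.0866 and 0.105). Klf2, Klf4, Ier3 and Fosl2 lost theirs in 4, 5, 2 and 4 of 16.

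Among 28 tested transcription factors of the macrophage lineage, 3 were higher (3.55% of all genes were), 5 were lower (2.28% were) and 20 did not pass. Besides Sall1, Sall3, Klf2 and Klf4, the lower factor was Nfia, at 77.3, 226 and 180.0 against 568, 748 and 639 (log2 fold -2.14 (SE 0.39, adjusted p = 0.00372)). Spic, which directs red pulp macrophages of the spleen, was at 43.6, 94.7 and 59.3 against 0 in all 3 brain libraries, at least 22.6-fold higher (adjusted p = 0.024). Bhlhe40, a relative of Bhlhe41, was at 407, 159 and 165 against 66.5, 84.7 and 42.7 (log2 fold 1.81 (SE 0.46, adjusted p = 0.0297)), and Spi1 at 283, 572 and 499 against 189, 161 and 230.2 (log2 fold 1.17 (SE 0.33, adjusted p = 0.0468)). Core factors Irf8 and Maf did not pass, with log2 folds of -0.02 (SE 0.18, adjusted p = 0.974) and 0.02 (SE 0.17, adjusted p = 0.968). Irf8 was at 3520.0, 3524 and 3407 against 3542, 3938 and 3161 and Maf at 11338, 10979 and 11762 against 10850.4, 10505 and 12225. The call of Nfia was lost for Nfia without the variance trend (adjusted p = 0.0531), and that of Spic in 7 of the 15 alternatives that tested it, and those of Bhlhe40 and Spi1 in 5 and 11 of 16.

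TGF-beta maintains microglia, and few of its receptors, mediators and targets passed the test. Of 18 tested genes, 1 was higher (3.55% of all genes were), 2 were lower (2.28% were) and 15 did not pass, with a median log2 fold of -0.59. Pmepa1, an induced inhibitor of the pathway, was higher, at 6060.0, 5772 and 6361 against 3477, 3265 and 2184 (log2 fold 1.06 (SE 0.23, adjusted p = 0.011)), and Smad7, another induced inhibitor, was lower, at 475, 329 and 293 against 1164, 1429 and 848 (log2 fold -1.65 (SE 0.45, adjusted p = 0.0447)). Ski, a repressor of Smad factors, was at 1302, 1580.5 and 1252 against 2201, 2419 and 2178 (log2 fold -0.72 (SE 0.20, adjusted p = 0.0426)). The receptor Tgfbr1 was at 3216, 2543 and 2240.3 against 4372, 3953 and 4181 (log2 fold -0.66 (SE 0.20, adjusted p = 0.072)). Calls were lost for Pmepa1 without the variance trend (adjusted p = 0.194), and for Smad7 and Ski in 7 and 9 of 16 alternatives.

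Growth factors and their receptors showed few calls, some of them large. Of 14 tested growth and trophic factors, 3 were higher (3.55% of all genes were) and 1 was lower (2.28% were). Besides Igf1, Igfbp4 was higher, at 925, 1069 and 664 against 323, 276 and 379 (log2 fold 1.42 (SE 0.26, adjusted p = 0.00391)), and Bmp2 was at 82.7, 56.3 and 34.5 against 0 in all 3 brain libraries, at least 19.8-fold higher (adjusted p = 0.0219). Tgfa, an EGF-family ligand, was lower, at 13.6, 0 and 0 against 329.7, 186 and 407 (log2 fold -6.91 (SE 1.48, adjusted p = 0.0106)). Of 7 tested colony-stimulating factor genes, Csf1 was lower and Csf2ra, the GM-CSF receptor chain, was higher, at 455, 288 and 412 against 51, 168 and 118 (log2 fold 1.90 (SE 0.45, adjusted p = 0.02)). Among these genes, calls were lost for Igfbp4 and Csf2ra without the variance trend (adjusted p = 0.0815 and 0.116), Csf2ra without brain library 1 (adjusted p = 0.0895), Csf2ra without epididymis library 1 (adjusted p = 0.0828) and Csf2ra without epididymis library 3 (adjusted p = 0.0691), and that of Bmp2 in 6 of the 15 alternatives that tested it.

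Most innate receptor and complement genes did not pass the test. C1qa, C1qb and C1qc, the chains of the first complement component, had log2 folds of 0.20, 0.30 and 0.19 and did not pass (adjusted p = 0.788, 0.436 and 0.722). C3ar1, the receptor for the complement fragment C3a, was higher, at 1758, 1406 and 1293 against 478, 642 and 465 (log2 fold 1.49 (SE 0.24, adjusted p = 0.00137)), so that with Itgax 2 of 13 complement genes were higher, and with Itgam 1 was lower. Of 26 tested Toll-like receptor genes, Tlr2 and Tlr12 were higher (7.69%, beside 3.55% of all genes) and 24 did not pass. Tlr2 was at 384, 176 and 419 against 45.5, 60.2 and 50.7 (log2 fold 2.54 (SE 0.50, adjusted p = 0.00629)). Of 14 Fc receptor genes, Fcer1g and Ptpn6 were higher and Fcrls was lower. Fcer1g, the common signalling chain, was at 1190.0, 861 and 991 against 378, 297 and 513 (log2 fold 1.38 (SE 0.27, adjusted p = 0.0066)). Of 12 purinergic genes, P2rx4, an ATP-gated channel, was higher, at 1557, 1289 and 1312 against 468, 652 and 404 (log2 fold 1.47 (SE 0.26, adjusted p = 0.0028)), and P2ry12 and Adora3 were lower. Under the alternatives, calls ended for C3ar1, P2rx4 and Fcer1g without the variance trend (adjusted p = 0.0558, 0.0786 and 0.107). Those of Tlr12, Ptpn6 and Adora3 were lost in 5, 8 and 6 of 16 alternatives.

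Adhesion molecules and matrix proteins included some of the lowest genes. Adamts1, a secreted protease that cleaves proteoglycans (chr16:85793827-85803113 of GRCm38), had no read in the epididymis and was at 1326, 2222 and 1948 in the brain, at least 626-fold lower (adjusted p = 3.29e-06). Testis macrophages held 25.9, 217 and 205. With Sparc it made up the lower genes of 18 tested matrix genes, of which Mmp14, a membrane-bound metalloprotease, was the higher one, at 835, 487 and 747 against 108, 118 and 253 (log2 fold 2.17 (SE 0.52, adjusted p = 0.0217)). Over all genes 3.55% were higher and 2.28% were lower. Of 20 tested integrin and adhesion genes, 3 were higher, 4 were lower and 13 did not pass. Selplg, the ligand of P-selectin, was at 733, 452 and 588 against 5801, 4843 and 5114 (log2 fold -3.17 (SE 0.22, adjusted p = 2.59e-07)). Itga4, a subunit of the integrin VLA-4, was at 235, 515 and 387 against 21.9, 86.9 and 86.2 (log2 fold 2.69 (SE 0.57, adjusted p = 0.0104)), and Cd44, the hyaluronan receptor, at 131, 252 and 129 against 13.7, 36.8 and 2.67 (log2 fold 3.69 (SE 0.75, adjusted p = 0.00741)). Calls did not hold for Itga4 and Cd44 without the variance trend (adjusted p = 0.0831 and 0.0525), Cd44 with only the 6 libraries in the fit (adjusted p = 0.0668) and Itga4 without epididymis library 2 (adjusted p = 0.0602), and that of Mmp14 in 5 of 16 alternatives.

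The few lysosomal genes that passed moved in both directions, and 5 of the 6 called iron genes were higher. Of 30 tested lysosomal genes, 4 were higher (3.55% of all genes were) and 2 were lower (2.28% were). The median log2 fold was 0.30. Besides Ctsc, the higher genes were Man2b1, Psap and Lamp1. These lost their calls without the variance trend (adjusted p = 0.304, 0.232 and 0.264), a fit in which no gene of the list was called. They also lost them without brain library 1, brain library 2 or epididymis library 1, among other alternatives. Ctsc, a protease that activates other proteases, was at 1798, 1229 and 1062 against 465, 577 and 362 (log2 fold 1.53 (SE 0.26, adjusted p = 0.00204)), while Ctsl, another cathepsin, was at 547, 538 and 486 against 1087, 1634 and 2129.6 (log2 fold -1.57 (SE 0.34, adjusted p = 0.0119)). Cst3, an inhibitor of cathepsins, was lower too, at 3297, 1701 and 1413 against 7507, 5769 and 10268 (log2 fold -1.94 (SE 0.41, adjusted p = 0.00984)). Of 22 tested iron and heme genes, 5 were higher (3.55% of all genes were) and 1 was lower (2.28% were). Cp, the ferroxidase ceruloplasmin, was at 1138, 1195 and 1813 against 57.4, 37.9 and 2.67, a log2 fold of 6.06 (SE 0.88, adjusted p = 0.000637), the largest of the 5 that does not rest on a group without reads. Ftl1, the ferritin light chain, was at 2524, 1448 and 1573 against 615, 396 and 790.1 (log2 fold 1.63 (SE 0.30, adjusted p = 0.00346)). Calls were lost for Ctsc, Ctsl, Cst3 and Ftl1 without the variance trend (adjusted p = 0.0689, 0.142, 0.156 and 0.105), Cst3 without epididymis library 2 (adjusted p = 0.0516), Cst3 without epididymis library 3 (adjusted p = 0.0603), Ctsl without brain library 2 (adjusted p = 0.059) and Ctsl without brain library 3 (adjusted p = 0.0674).

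Genes of the respiratory burst and of several surface proteins, outside the lists and named after their values were seen, had some of the smallest p-values. Cybb, the catalytic subunit of the phagocyte NADPH oxidase, was at 3391, 2911 and 3161 in the epididymis and 56.5, 42.4 and 32 in the brain, a log2 fold of 6.18 (SE 0.25, adjusted p = 3.96e-10). Its partner Cyba differed less, at 1114, 991 and 1517 against 412, 461 and 746 (log2 fold 1.19 (SE 0.26, adjusted p = 0.0125)). Cd72, an inhibitory receptor also found on B cells, was at 3475, 5067 and 4919 against 82, 106 and 115 (log2 fold 5.46 (SE 0.27, adjusted p = 3.68e-09)), and Gpr65, a proton-sensing receptor, at 3120.0, 2485 and 1894 against 43.7, 15.6 and 38.2 (log2 fold 6.32 (SE 0.38, adjusted p = 4.74e-08)). Rab7b, a small GTPase of late endosomes, was at 718, 633 and 849.6 against 1.82, 16.7 and 17.8 (log2 fold 6.22 (SE 0.57, adjusted p = 8.16e-06)). The highest brain value of Cybb, Gpr65 and Rab7b was 56.5, for Cybb, and the lowest epididymis value 633, for Rab7b. Trpm2, a calcium channel gated by oxidative stress and one of 3 higher genes among 22 tested ion channels, was at 2207, 2201 and 2166 against 668, 682 and 591 (log2 fold 1.76 (SE 0.26, adjusted p = 0.00068)) and at 256, 135 and 223 in the testis. Of these calls only that of Cyba was lost, for Cyba without the variance trend (adjusted p = 0.166), Cyba without brain library 1 (adjusted p = 0.0765), Cyba without brain library 2 (adjusted p = 0.0626) and Cyba without epididymis library 3 (adjusted p = 0.0646).

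Ribosomal protein genes were higher in the epididymis where they passed the test. Of 27 tested genes, 11 were higher (3.55% of all genes were), none was lower and 16 did not pass, with a median log2 fold of 0.91. Of the 27, 17 had all epididymis libraries above all brain libraries, which 11.5% of all genes showed. Rpl23 was at 9066, 9053 and 8734 against 2929, 3723 and 4328 (log2 fold 1.31 (SE 0.19, adjusted p = 0.000587)) and Rps16 at 4689, 4074 and 5195 against 1535, 1273 and 2519 (log2 fold 1.44 (SE 0.24, adjusted p = 0.00178)). In the testis macrophages both were higher still, at 23989, 25438 and 21841 and 11378, 15657 and 13072. None of the 27 was called without the variance trend, where Rpl23 had an adjusted p of 0.0701 and Rps16 one of 0.0961. Nuclear genes of oxidative phosphorylation had a median of 0.42, and 1 of 28 tested, Cox6c, was higher, a call lost in 6 of 16 alternatives. That is 3.57% of the list, close to the 3.55% of all genes. Of 16 tested cell division genes 3 were higher. Mki67, present only in cycling cells, was at 244, 68.5 and 75.5 against 6.38, 0 and 0 (log2 fold 5.81 (SE 1.19, adjusted p = 0.00844)), and Top2a at 401, 514 and 479.8 against 145, 241 and 88 (log2 fold 1.66 (SE 0.38, adjusted p = 0.015)). Some calls ended, for Top2a without the variance trend (adjusted p = 0.116), Mki67 without epididymis library 1 (adjusted p = 0.0544), Top2a without brain library 1 (adjusted p = 0.0559), Top2a without brain library 3 (adjusted p = 0.0598), Top2a without epididymis library 2 (adjusted p = 0.0616) and Top2a without epididymis library 3 (adjusted p = 0.0515).

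**Figure D4:**
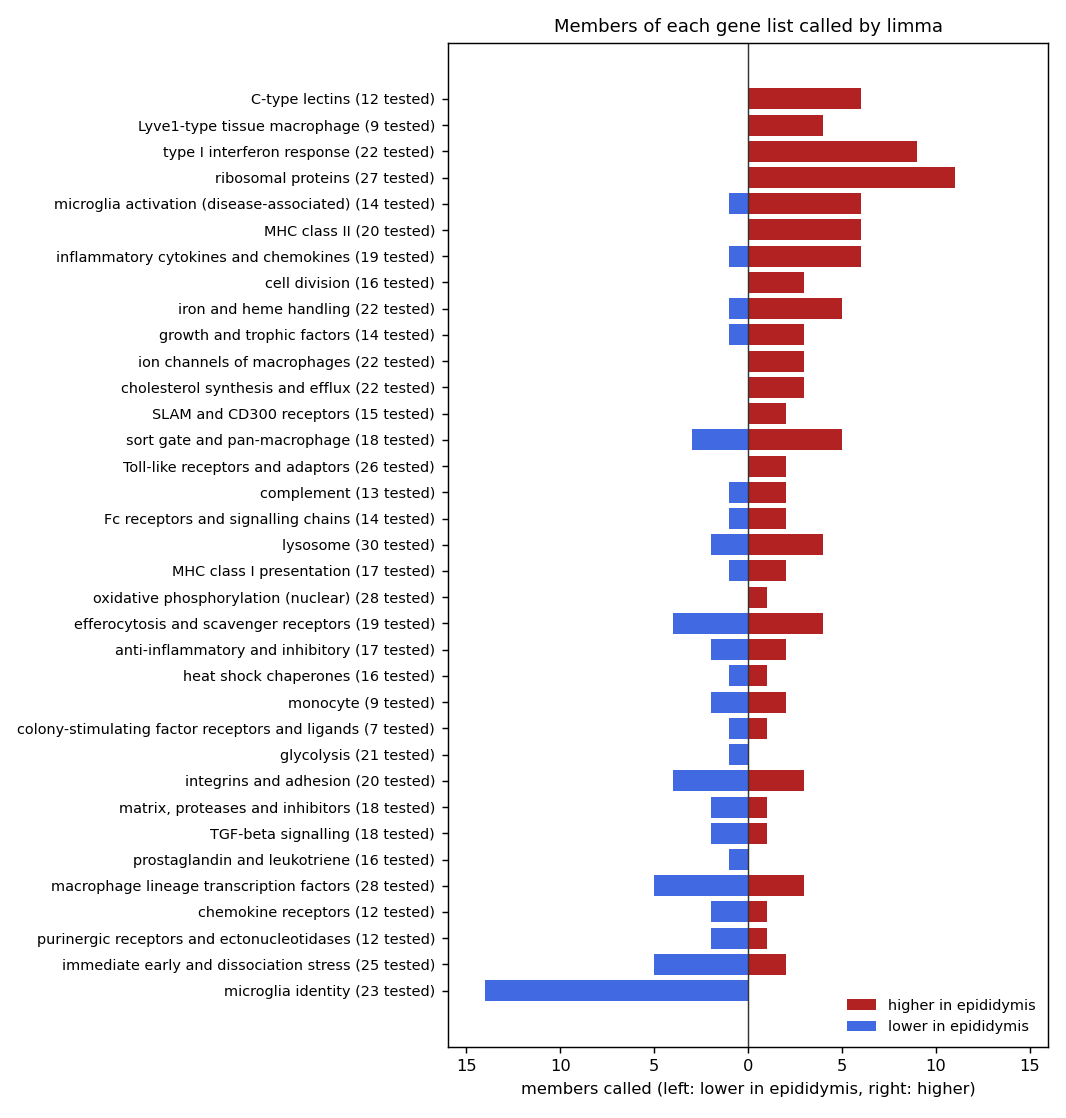
Number of tested members of each gene list called higher in the epididymis (red, to the right) or lower (blue, to the left) by limma at an adjusted p below 0.05, with the number tested in brackets. Microglia identity has 14 lower members and none higher, and the ribosomal protein, interferon, C-type lectin and MHC class II lists have higher members alone.

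Several further genes with no or almost no reads in an organ were among the largest folds. Higher in the epididymis were Klra2, a lectin-like receptor of a large gene family, at 635, 541 and 397 against 0, 0 and 16 (log2 fold 7.65 (SE 1.19, adjusted p = 0.00119)), and Stard13, a GTPase-activating protein, at 233, 157 and 180.0 with 1 brain read in all (ratio 641, 95% counting interval 106 to 23542, adjusted p = 0.00101). Lower were St3gal5, which makes the ganglioside GM3, with 3 epididymis reads in all against 384, 322 and 362 in the brain. Its ratio of brain to epididymis was 345 (95% counting interval 126 to 1794, adjusted p = 0.000522). No epididymis read was counted for Myo18b, Naalad2, Slc24a3, Oaf and Tppp, which were at 211, 179 and 141, 159, 182 and 139, 189, 119 and 167, 58.3, 218 and 277 and 144, 223 and 80 in the brain libraries. They were at least 60.6-fold, 54.7-fold, 54.2-fold, 63.1-fold and 50.9-fold lower (adjusted p = 0.00239, 0.0144, 0.00686, 0.00874 and 0.0119). Alox5, the enzyme that starts leukotriene synthesis, was at 0, 0 and 17.2 against 193, 79.1 and 174 (log2 fold -5.73 (SE 1.18, adjusted p = 0.00854)). Alternatives ended the calls of these genes as follows, for Naalad2, Tppp and Alox5 without brain library 1 (adjusted p = 0.0559, 0.0526 and 0.0636) and Naalad2 and Tppp without brain library 2 (adjusted p = 0.0538 and 0.0554).

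Transcripts of other cell types of each organ were present and differed with the organ, and their part in the results above was not tested. Of 19 sperm and spermatid markers, 7 were tested and 5 were higher in the epididymis, and the list took 3 to 4.31 of every 10000 reads there against 1.2 to 1.47 in the brain. Prm1, a protamine that packs sperm DNA, was at 296, 155 and 31.3 against 0 in all 3 brain libraries, at least 55.2-fold higher (adjusted p = 0.00296), and Tnp1, a transition protein, at 182, 301 and 125 against 0, 1.11 and 0, with 1 brain read. Of 24 epididymal epithelium markers 3 were tested and 1, the beta-defensin Defb20, was higher, at 241, 136 and 274 against 0 in all 3, at least 74.4-fold higher (adjusted p = 0.00201). That list took 1.79 to 2.35 of every 10000 reads in the epididymis and 0.00733 to 0.208 in the brain, where 19 of its 24 members had no read. Prm1, Tnp1 and Defb20 reached the inclusion limit through the epididymis libraries alone, so for them the filter fixed the direction in advance. The summed reads include members that were not tested. By the rule on fold size, the epithelial genes Defb25 and Adam7 were also among the largest, at 330.0, 289.8 and 497 and 176, 294 and 112 in the epididymis (adjusted p = 0.00181 and 0.00671).

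In the brain libraries, markers of brain cells took few reads. Astrocyte markers took 1.71 to 2.02 of every 10000 reads in the brain and 0.393 to 0.836 in the epididymis, and Aqp4, the water channel of astrocyte endfeet, was at 49.2, 15.6 and 16.9 in the brain and had no read in the epididymis (adjusted p = 0.0336). Ttr, made by the choroid plexus, was at 40.1, 39 and 65.8 against no read (adjusted p = 0.0119). Aqp4 and Ttr reached the inclusion limit through the brain libraries alone, so for them the filter fixed the direction in advance. Neuron markers took 1.82 to 2.85 in the brain and 1.17 to 2.48 in the epididymis, and none of 5 tested was called. Endothelial markers took 1.85 to 2.2 against 0.428 to 1.27, with none of 4 called. Neutrophil markers took 1.57 to 2.83 against 0.61 to 1.34, and S100a8 and S100a9 were lower in the epididymis, at 0, 9.38 and 0 against 104, 62.4 and 89.8 and 4.55, 0 and 0 against 209, 22.3 and 80.9 (adjusted p = 0.0372 and 0.0347). S100a8 and S100a9 too reached the inclusion limit through the brain libraries alone, with the direction fixed in advance. T and NK cell markers took 0.833 to 0.863 in the epididymis and 0.284 to 0.51 in the brain, where Ccl5 was the single called gene of 4 tested. Fibroblast markers took 0.485 to 1.31 against 0.054 to 0.159, with Gsn, gelsolin, at 196, 240.1 and 76.5 against 14.6, 0 and 0 (adjusted p = 0.00326). The call of Aqp4 was lost in 10 of the 14 alternatives that tested it (adjusted p up to 0.179), that of S100a8 in 10 of 16 (up to 0.267), that of S100a9 in 7 of 15 (up to 0.125) and that of Ccl5 in 8 of 15 (up to 0.109). The call of Ttr was lost by edgeR on recovered reads (adjusted p = 0.1), and that of Gsn held in all 16.

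Of markers of conventional dendritic cells, which can share class II genes and Itgax with macrophages, 7 were tested and Itgax alone was called. The list took 3.38 to 5.91 of every 10000 reads in the epididymis and 5.26 to 6.51 in the brain. Of its 15 members, 4 had no read in the epididymis and 4 had none in the brain. B and plasma cell markers took 1 to 1.94 against 1.6 to 1.79, with none of 5 tested called. The summed levels of both lists overlapped between the organs, unlike those of the border-associated macrophage list, at 23.3 to 24.7 against 2.49 to 3.38. Of that list 6 were tested and Mrc1, Pf4 and Ms4a7 were higher.

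**Figure D5:**
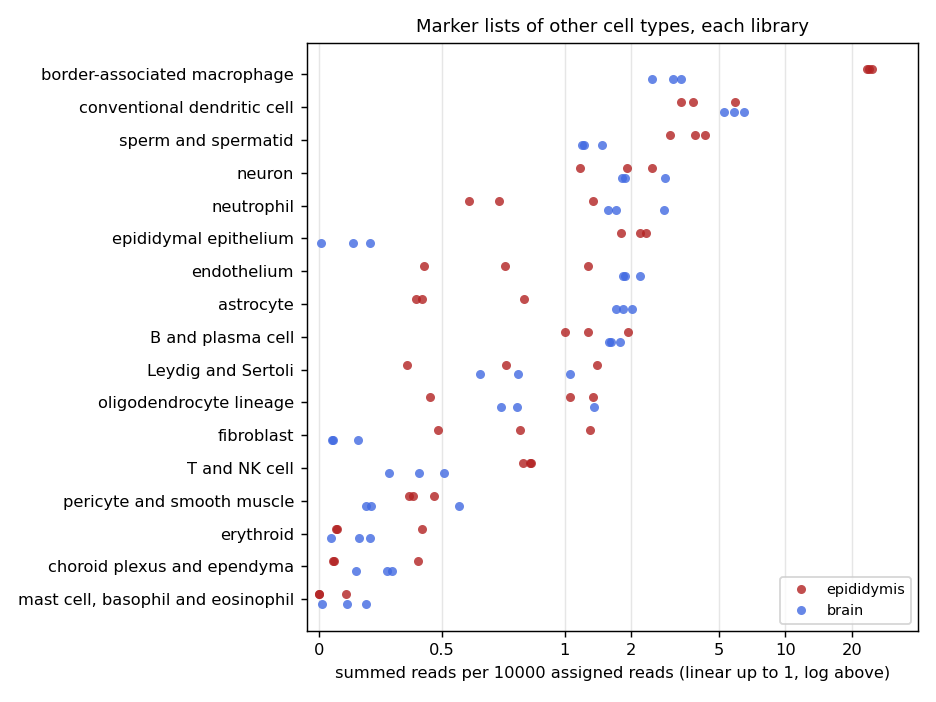
Summed reads of each marker list per 10000 assigned reads, on an axis that is linear up to 1 and logarithmic above, for each epididymis library (red) and brain library (blue). Sperm and epididymal epithelium markers lie higher in the epididymis, astrocyte and endothelium markers higher in the brain, and the border-associated macrophage list stands far apart.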

How the data were processed

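Sorted macrophages were sequenced in bulk with a TruSeq kit that does not mark the strand, per the labels' protocols. The deposited signal values are read counts divided by a factor per library. Tools named by the submitters' processing notes are CASAVA 1.8, Bowtie2 2.2.1, Partek 6.6 and DESeq2, with the mm10 genome, and neither their roles nor the counting rule are given there. In every library 100% of values were whole multiples (within 0.001 read) of the smallest value above 0, so whole reads were recovered.

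Values were tested as log2(value + 1), a scale that understates the change of low genes, with limma 3.58.1 in R 4.3.3 over all 9 libraries (1 mean per organ, variance trend, contrast epididymis minus brain, Benjamini-Hochberg adjustment), after a check on simulated data. The fit had 6 residual and 9.05 prior degrees of freedom. On the recovered reads edgeR 4.0.16 called 307 genes higher and 171 lower, and DESeq2 1.42.0 called 494 and 353. Other alternatives changed the pseudocount, filter, variance trend, samples and scaling, or left out a library. Genes without reads were bounded by 3 reads per library, and 95% counting intervals cover counting error only. Libraries are numbered in accession order.

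Named genes were the 12 of largest fold in each direction among called genes without overlap and with a mean of at least 115 in the higher organ, up to 4 called members per list and direction, the sort markers, and the 2 highest markers of each other cell type. Genes beyond this rule were chosen after their values were seen. Some genes that meet it are not reported here. Members and lists were chosen with earlier results of these data known. Gene positions are from GENCODE M21 and promoters from RefSeq, leaving out chromosome 18. Other motifs were sought in the same bases. PU.1 (GAGGAAGT) was held by 0 of 16 microglia identity genes with a promoter (2.79% of all genes). AP-1 (TGANTCA) was held by 1 of 22 immediate early genes (7.82% of all genes). The heat shock element was held by 2 of 13 heat shock chaperone genes (0.514% of all genes). These were the neighbours Hspd1 and Hspe1 on opposite strands, whose scanned bases overlap and share the same matching stretch, so they are not separate finds.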

Additional observations from a re-analysis of the deposited data

How the results depend on the processing

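No paired analysis was possible because the labels give the libraries no replicate number or link across organs. Of 187 called genes that were named or belong to a list, 177 were tested under all 16 alternatives (10 fell under the filter at a value of 50, and 1 of these had no adjusted p by DESeq2), and 78 of the 177 kept their call under all of them. Without the variance trend 97 of the 187 kept it. No called gene changed direction where it was tested. Rps6, which was not called (log2 fold -0.61), had folds from -2.26 to 2.23 when 1 library was left out, the highest without epididymis library 3 (adjusted p = 0.0417). Without the variance trend, 189 genes were higher and 145 lower, and 61 distinct genes of the macrophage and process lists were called in place of 133. Leaving out 1 library gave 243 to 360 higher genes (lowest without epididymis library 1) and 103 to 190 lower genes (lowest without brain library 1, then 113 and 149 without brain libraries 2 and 3). The other settings stayed within 1.5 times of 371 and 238 genes: the extremes were 494 and 353 by DESeq2, and 307 and 171 by edgeR. Limits are a depth of 2727092 to 3516387 reads per library, at which genes with few reads are measured imprecisely, the single mouse number per organ, and a spread between libraries with a biological coefficient of variation of 0.806 by edgeR.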
